A study of Mus musculus with 6 samples.

Results

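Sox genes encode the transcription factors of the SOX family, and 10 of them were followed here in the anterior prostate (AP) of mice with an over-activated Notch1 signal. The members Sox2, Sox4, Sox5, Sox6, Sox9, Sox12, Sox13, Sox15, Sox17 and Sox18 were taken by gene symbol and make up 10 of the 55076 rows measured in each mouse. Total RNA of whole APs from 20-week-old male mice was sequenced in 3 OEx mice, labelled N1ICD-Oex, and in 3 Ctrl mice, labelled wild type. Per the methods of the study, OEx mice carry Pbsn-Cre and 1 Rosa26 N1ICD allele, from which Cre releases the Notch1 intracellular domain (N1ICD), and Ctrl mice carry the Rosa26 N1ICD allele without Cre. Pbsn-Cre is driven by the probasin promoter and acts in prostate epithelium, so the N1ICD allele was not recombined by design in endothelium, muscle or fibroblasts, whose RNA was in the same tissue libraries. The comparison asks how epithelial Notch1 over-activation went along with the levels of the Sox genes.

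SOX proteins bind DNA through an HMG box, a domain that bends the DNA it contacts, and they act together with partner factors. The family is split into subfamilies by this box. Sox2 (SoxB1) is known from stem and progenitor cells, Sox4 and Sox12 (SoxC) from progenitor cells of many tissues, and Sox9 (SoxE) from cartilage, the testis and the epithelial buds of the developing prostate. Sox5, Sox6 and Sox13 (SoxD) have no known activation domain of their own and act with other factors, Sox17 and Sox18 (SoxF) are known from endothelium, and Sox15 (SoxG) is a close relative of Sox2.

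Levels are given in FPKM (fragments per kilobase of exon, scaled to a size for each library), which can be compared between genes of different length. That size was not the total of the reads found, as given below. The reads recovered on annotated genes ran from 14762182 to 18650962 per mouse, where 3 reads correspond to 0.161 to 0.203 CPM (counts scaled by the library total), a floor that covers counting error only. Notch1, read to check the labels, had 41.9, 47.6 and 78.9 FPKM in OEx mice 1 to 3 and 5.18, 5.55 and 3.34 FPKM in Ctrl mice 1 to 3. Reads of the transgene and of the endogenous gene cannot be told apart in these values. Mouse 3 stood apart in both groups. Over genes with at least 20 reads, OEx mice 1 and 2 differed in 21.02% of genes past a chi-square p of 0.05, against 51.1% to 51.7% for pairs with OEx mouse 3, and Ctrl mice 1 and 2 differed in 19.2%, against 57.5% to 58.0% for pairs with Ctrl mouse 3. The labels do not say whether mice 1 and 2 were separate animals, so p-values measure the spread between these samples. Calls of the members and of Sox7 are also given with mice 1 and 2 of each group averaged or summed as 1 sample where that changes them. For partner and marker genes no such fit is given, so their calls treat all mice as separate animals. The 8 fibroblast markers summed to 277 and 282 FPKM in OEx mice 1 and 2 and to 28.7 FPKM in OEx mouse 3. Genes of the seminal vesicle, a neighbouring gland, took 1.31% of the reads of Ctrl mouse 3 and at most 3.25e-04% elsewhere.

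A gene was said to rise or fall where limma on log2(FPKM + 1) gave a Benjamini-Hochberg false discovery rate (FDR) under 0.05 and a fold change over 2 on that scale, which understates the change of low genes. Of the 10 members, 6 had a mean of at least 1 FPKM and entered this test. Sox2, Sox9 and Sox13 rose in OEx mice, which makes 3 of 6 members where 12.9% of the 12833 genes tested rose. Sox12 and Sox18 fell, which makes 2 of 6 where 15.7% of genes fell. The groups did not overlap for any of the 6: OEx mice lay above Ctrl mice for 4 members, as for 33.4% of all genes, and below for 2, as for 38.9%. The median log2 fold change of the 6 members was 1.04, beside -0.08 over all genes tested. Leaving out OEx mouse 3 took 1 call, that of Sox18, and leaving out any other mouse took none. Under each of 3 other scalings between mice 1 member, Sox12, fell in place of 2, where 504, 717 and 1326 of all genes fell in place of 2021.

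**Figure D1:**
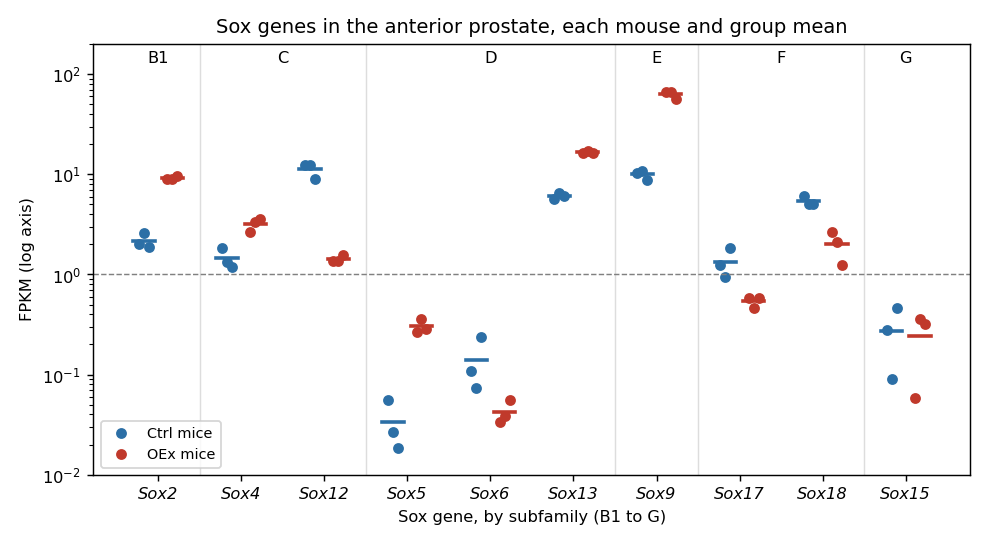
Level of each Sox gene in FPKM on a log axis, by subfamily, with 1 point per mouse, a short line at the group mean and a dashed line at 1 FPKM. Sox9 sits between 56.5 and 66.9 FPKM in OEx mice and between 8.80 and 10.8 FPKM in Ctrl mice, and Sox12 is the member with means over 1 FPKM that drops most, from 11.2 to 1.44 FPKM.

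Promoter sequences are shown for 4 of the tested members, so that the start regions of members that were higher (Sox2, Sox4, Sox13) and lower (Sox12) can be read side by side. They come from RefSeq on GRCm38.p6 and end before the first annotated exon base, and 7 of the 10 members matched an entry, with 12 regions among 32851. Sox9, Sox17 and Sox18 had no entry. Capitals mark TGGGAA, the core of the site bound by RBPJ, the DNA-binding partner of N1ICD, and in Sox12 ATGCAAAT, the POU octamer, whose factors are partners of Sox2. The Sox2 stretch is chr3:34649745-34649994 on the plus strand, Sox4 is chr13:28953714-28953949, Sox13 is chr1:133424378-133424462 and Sox12 is chr2:152398064-152398296, the latter 3 on the minus strand and all written 5′ to 3′.

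Sox2: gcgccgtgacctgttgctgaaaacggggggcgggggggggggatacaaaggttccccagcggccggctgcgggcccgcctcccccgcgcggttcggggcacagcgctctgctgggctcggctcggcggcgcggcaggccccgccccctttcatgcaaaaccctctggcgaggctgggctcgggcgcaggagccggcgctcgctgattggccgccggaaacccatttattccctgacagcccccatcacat

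Sox4: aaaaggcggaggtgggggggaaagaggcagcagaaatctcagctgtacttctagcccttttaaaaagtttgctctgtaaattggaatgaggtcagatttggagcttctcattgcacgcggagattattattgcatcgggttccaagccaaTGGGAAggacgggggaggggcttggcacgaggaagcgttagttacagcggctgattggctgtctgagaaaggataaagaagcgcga

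Sox13: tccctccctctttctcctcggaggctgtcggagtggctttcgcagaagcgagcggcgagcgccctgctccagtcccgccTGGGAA

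Sox12: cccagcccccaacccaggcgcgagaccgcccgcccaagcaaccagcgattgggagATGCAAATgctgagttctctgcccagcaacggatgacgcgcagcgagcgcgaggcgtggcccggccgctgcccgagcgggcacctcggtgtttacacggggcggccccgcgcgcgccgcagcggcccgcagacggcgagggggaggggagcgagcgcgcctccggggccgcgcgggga

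TGGGAA was searched on both strands in the 250 bases before each RefSeq start, and 3 of the 12 member regions held it, where 21.6% of all 32851 regions did. These were the regions of Sox4, with the match beginning 100 bases before the start, of Sox13, 171 bases before it, and of Sox15, with 3 matches. These distances are counted to the RefSeq start. The printed Sox13 stretch ends at its match, because the next base lies in an annotated exon that begins ahead of the RefSeq start. The Sox2 region held none. Several of the 12 regions are starts of Sox6, and none of those held TGGGAA, so the share by region is not a share of the 7 members with an entry. The octamer ATGCAAAT was searched after the sequences had been read, was found in the Sox12 region 195 bases before the start, and occurs in 1.60% of all regions. AACAAT, a core to which SOX proteins bind, was present in 9.42% of all regions and among the members in 1 region of Sox6. CACNAG, the N-box read by Hes repressors, which are Notch targets, was present in 36.7% of all regions and in regions of Sox4, Sox6 and Sox15. A match shows that these letters are present and no more.

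Sox9 was the most abundant member in OEx mice. It is placed at chr11:112782224-112787760 on the plus strand (GRCm38), and it acts in the formation of cartilage, testis and prostate buds. Its level was 66.9, 65.7 and 56.5 FPKM in OEx mice and 10.4, 10.8 and 8.80 FPKM in Ctrl mice. The lowest OEx mouse was 5.23 times the highest Ctrl mouse, so the groups lay far apart. Sox9 rose 6.31-fold in mean FPKM, from 9.99 ± 1.05 to 63.1 ± 5.72 (SD, n = 3 each), with a log2 fold change of 2.54 (SE 0.111, limma FDR 2.33e-05). Reads behind these values came to 15954 under OEx and 1668 under Ctrl.

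Sox2 was low in Ctrl mice and clearly expressed in OEx mice. The gene has no introns, lies at chr3:34650405-34652461 on the plus strand, and its protein helps to keep stem cells undifferentiated. Levels were 9.02, 8.99 and 9.56 FPKM in OEx mice and 2.02, 2.59 and 1.89 FPKM in Ctrl mice. The mean was 9.19 ± 0.321 FPKM in OEx mice and 2.17 ± 0.374 FPKM in Ctrl mice (SD, n = 3 each), and no OEx mouse came near the Ctrl mice. Sox2 rose 4.24-fold, with a log2 fold change of 1.69 (SE 0.109, limma FDR 4.90e-05). Sox2ot, a long non-coding RNA inside which Sox2 lies on the same strand without shared exon bases, had read counts of 36, 37 and 17 under OEx and of 1, 1 and 3 under Ctrl. The Sox2ot groups did not overlap, and the two-sided exact permutation p was 0.1, the smallest that 3 against 3 mice allow.

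The SoxC genes moved apart. Sox4, known from progenitor cells and from many tumours, had 2.68, 3.34 and 3.62 FPKM in OEx mice and 1.85, 1.34 and 1.19 FPKM in Ctrl mice. Every OEx mouse lay above every Ctrl mouse. The mean was 3.21 ± 0.483 against 1.46 ± 0.345 FPKM (SD, n = 3 each), and the log2 fold change of 0.78 (95% interval 0.42 to 1.13, limma FDR 0.00344) passed the FDR and not the fold criterion. The ratio of the mean FPKM values was 2.20, and with a pseudocount of 0.1 in place of 1 the log2 fold change was 1.10 and passed both (limma FDR 0.00382). Sox4 is at chr13:28948919-28953713 on the minus strand, and 54.6% of its exon bases are shared with Gm26735, a long non-coding RNA on the other strand that was listed at 0 in every mouse. The strand setting of the counting is not stated, so the 0 does not show how reads in the shared bases were assigned.

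Sox12 was the leading member in Ctrl mice and the one that fell most in OEx mice. It belongs to the same subfamily as Sox4 and lies at chr2:152393611-152398063 on the minus strand. Levels were 1.37, 1.37 and 1.57 FPKM in OEx mice and 12.4, 12.2 and 8.99 FPKM in Ctrl mice. The highest OEx mouse stayed below the lowest Ctrl mouse by a factor of 5.73. Sox12 fell, with Ctrl at 7.80 times OEx in mean FPKM and a log2 fold change of -2.31 (SE 0.137, limma FDR 3.94e-05). The ratio of Sox4 to Sox12 in FPKM ran from 0.109 to 0.149 in Ctrl and from 1.95 to 2.43 in OEx mice, so the order of these relatives turned over in each mouse. The transcripts of Sox4 and Sox12 share the longest identical run among the 45 pairs of members, 33 bases inside the reading frame of both, where the median pair shares 17 bases.

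Shared by Sox4 and Sox12: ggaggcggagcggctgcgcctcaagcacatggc

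Reads shorter than such a run could not be placed on 1 gene, and the read length is not given in the sources used here.

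Among the SoxD genes Sox13 was the only one expressed above 1 FPKM. It was first described as an autoantigen and takes part in the choice between T cell lineages. The gene lies at chr1:133382303-133424377 on the minus strand. Levels were 16.2, 17.1 and 16.4 FPKM in OEx mice and 5.69, 6.57 and 6.07 FPKM in Ctrl mice. Spread within each group was small, with means of 16.6 ± 0.490 and 6.11 ± 0.443 FPKM (SD, n = 3 each). Sox13 rose 2.71-fold, with a log2 fold change of 1.31 (SE 0.0836, limma FDR 4.72e-05).

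Sox5 and Sox6, the SoxD genes needed for cartilage, were far lower and lay on opposite sides. Sox5 had read counts of 76, 118 and 74 under OEx and of 10, 5 and 4 under Ctrl, or 0.303 ± 0.0494 against 0.0336 ± 0.0195 FPKM. The OEx mean was 9.02 times the Ctrl mean, the highest ratio of the 10 members, on 19 Ctrl reads in all. Because the main test left out genes under 1 FPKM, limma-voom was also run on the recovered reads of all 20236 genes with at least 10 reads in total, a step added after seeing the data. In that fit 23.7% of genes rose, 12.7% fell and the median log2 fold change was 0.29. Sox5 rose there by 3.35 on the log2 scale (SE 0.452, FDR 5.67e-04). With mice 1 and 2 of each group summed as 1 sample the value was 3.40 (limma-voom FDR 0.00691). In the planned limma fit on log2(FPKM + 1) with no filter, Sox5 was at 0.33 and was not called. It passed the FDR there (limma FDR 0.00211) and not the fold criterion, on a scale that understates the change of low genes.

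Sox6 had read counts of 10, 13 and 15 under OEx and of 20, 14 and 53 under Ctrl. Ctrl mouse 3 held most of the Ctrl reads, and although all OEx values in FPKM were below all Ctrl values, the log2 fold change of -1.46 in the limma-voom fit did not pass (FDR 0.0527). The Sox6 groups overlapped with library totals, with or without the 20 most abundant rows. Sox5 lies at chr6:143828425-144781977 and Sox6 at chr7:115470872-116038796, both on the minus strand. Sox5os1, on the other strand, shares 9.25% of the exon bases of Sox5 and was listed at 0 in every mouse, with the same limit as for Sox4.

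Sox15, at chr11:69655314-69656727 on the plus strand, was barely detected. It had read counts of 1, 7 and 5 under OEx and of 3, 1 and 6 under Ctrl. The groups overlapped, and the log2 fold change of -0.19 had a 95% interval from -2.13 to 1.76 in the limma-voom fit (FDR 0.862), so a change was not detectable at this depth. Its exons share 31 bases with Mpdu1 on the other strand, a gene at 20.8 to 23.5 FPKM in OEx mice and 44.3 to 47.0 FPKM in Ctrl mice, and the strand setting of the counting is not stated.

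The SoxF genes, which mark vessels and lymphatics, were lower in OEx mice. Sox18 lies at chr2:181669836-181671640 on the minus strand and had 2.66, 2.11 and 1.23 FPKM in OEx mice and 6.07, 5.01 and 4.997 FPKM in Ctrl mice. OEx mouse 3 was the lowest of all. Sox18 fell, with a mean of 2.00 ± 0.721 against 5.36 ± 0.616 FPKM and a log2 fold change of -1.11 (SE 0.194, limma FDR 0.00233). The call rests on OEx mouse 3 and on the scaling. Without OEx mouse 3 the value was -0.91 (limma FDR 0.00204), and under 3 other scalings between mice it ran from -0.90 to -0.43, with overlapping groups for library totals, and none of these values passed both criteria.

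Sox17, at chr1:4490931-4497354 on the minus strand, had 0.578, 0.467 and 0.580 FPKM in OEx mice and 1.26, 0.939 and 1.82 FPKM in Ctrl mice. The groups did not overlap, with 156 reads under OEx and 265 under Ctrl. It was under the filter of the main test. In the planned limma fit on log2(FPKM + 1) with no filter, Sox17 was at -0.58 (limma FDR 0.0369) and did not pass the fold criterion. In the limma-voom fit Sox17 fell by 1.17 on the log2 scale (SE 0.317, FDR 0.0157), and with mice 1 and 2 of each group summed the value was -1.20 and did not pass (limma-voom FDR 0.0597). Gm37587, on the other strand, shares 16.8% of the exon bases of Sox17 and was listed at 0 in every mouse, again with the strand setting not stated. With library totals in place of the deposited scaling, the Sox17 groups overlapped.

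On the deposited scaling the summed vessel markers were lower in OEx mice along with the SoxF genes, and their part in the SoxF results was not tested. The marker sum was not taken under the other scalings, under which Sox18 lost its call. Library totals move the median log2 fold change over all genes tested from -0.08 to 0.65, so the lower sum holds for the deposited scaling only. The 12 endothelial markers summed to 22.6 to 26.3 FPKM in OEx mice and 38.5 to 61.2 FPKM in Ctrl mice, and none was at 0 in all mice. Of the 11 tested, 2 fell and 0 rose, beside 15.7% and 12.9% of all genes, and 9 had all OEx mice below all Ctrl mice, as did 38.9% of all genes. The markers that fell were Emcn, a sialomucin of capillaries and veins, with a log2 fold change of -2.03 (limma FDR 3.00e-05), and Cldn5, a tight junction protein of endothelium, with -1.66 (limma FDR 0.00288). Esam, an adhesion molecule of endothelium, went the other way, with 9.98, 9.62 and 9.37 FPKM in OEx mice and 4.04, 4.90 and 7.37 FPKM in Ctrl mice. Its log2 fold change of 0.76 (limma FDR 0.00991) was under the fold criterion, and Tek overlapped between groups. Taken as a percent of the summed markers, Sox18 was 5.46% to 10.1% under OEx and 8.16% to 15.7% under Ctrl, so the groups overlapped. Sox17 was 1.78% to 2.57% under OEx and 2.37% to 3.26% under Ctrl, which also overlapped. Esam made up 36.6% to 41.5% of the sum under OEx and 10.5% to 12.4% under Ctrl, so the percents depend on it. Without Esam, a choice made after its values were seen, the sum was 13.2 to 16.6 FPKM under OEx and 34.5 to 53.8 FPKM under Ctrl, Sox18 was 9.33% to 16.3% and 9.28% to 17.6% of it, and Sox17 was 2.81% to 4.40% and 2.70% to 3.64%, again with overlap. In tissue libraries fewer endothelial cells and less Sox RNA per cell cannot be told apart. Sox7, the remaining SoxF gene, had 0.137, 0.212 and 0.134 FPKM in OEx mice and 0.339, 0.492 and 0.439 FPKM in Ctrl mice on 33 and 57 reads in all. Its log2 fold change in the limma-voom fit was -1.25 (FDR 0.0278), and with mice 1 and 2 of each group summed -1.29, which did not pass (FDR 0.101). In the limma fit on log2(FPKM + 1) with no filter, Sox7 was at -0.29 (limma FDR 0.0166) and did not pass the fold criterion.

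**Figure D2:**
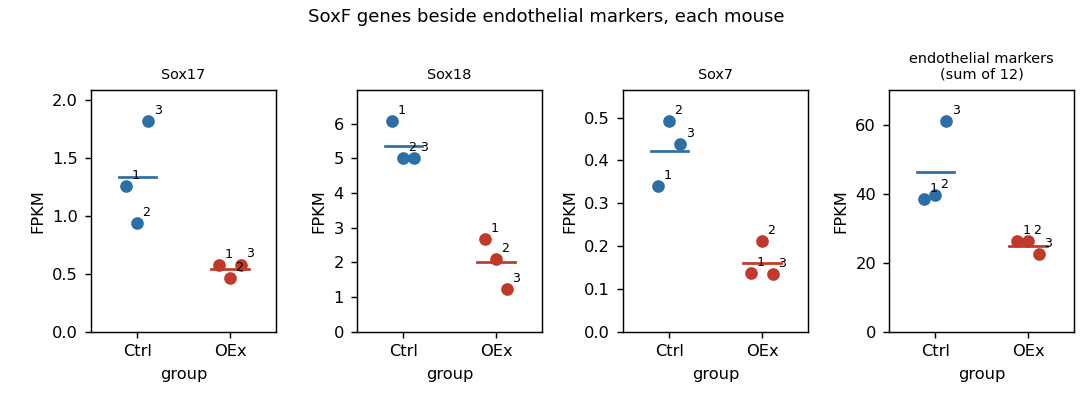
Sox17, Sox18, Sox7 and the sum of the 12 endothelial markers in FPKM, with 1 numbered point per mouse, a line at the group mean and axes from 0. On the deposited scaling every OEx mouse lies below every Ctrl mouse in all 4 panels. Ctrl mouse 3 is highest for Sox17 (1.82 FPKM) and for the marker sum (61.2 FPKM).

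Other cell type markers differed between the groups as well on the deposited scaling, and their part in the Sox results was not tested. Beside the counts that follow, 12.9% of all genes tested rose and 15.7% fell. The 7 basal epithelial markers summed to 11.8 to 20.6 FPKM in OEx mice and 224 to 262 FPKM in Ctrl mice, and 6 of 7 fell, among them Krt5, a basal keratin, which was at -4.41 on the log2 scale (limma FDR 1.74e-05). The 8 smooth muscle markers all fell, with sums of 430 to 515 FPKM in OEx mice and 1301, 1277 and 2724 FPKM in Ctrl mice 1 to 3. Des, one of them, passed narrowly (limma FDR 0.0449) and did not pass in the limma-voom fit (FDR 0.0589). The 6 luminal markers, which check the labelled tissue, were all present, at 1546 to 1926 FPKM in OEx mice and 2732 to 3170 FPKM in Ctrl mice, and 2 of 6 fell. Of the 5 proximal luminal and urethral markers 3 rose and 1 fell, and their summed levels overlapped between groups. Of the 8 fibroblast markers 0 rose and 0 fell, and the 6 immune markers summed to 191, 174 and 12.1 FPKM in OEx mice 1 to 3 and to 26.4 to 64.9 FPKM in Ctrl mice.

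The make-up of the Sox transcript pool differed between the groups. The 10 members summed to 96.6 ± 5.62 FPKM in OEx mice and 38.1 ± 3.15 FPKM in Ctrl mice, and without Sox9 to 33.5 ± 0.655 and 28.1 ± 2.16 FPKM (SD, n = 3 each). Sox9 took 65.2% ± 2.26 of the summed FPKM in OEx mice and 26.2% ± 0.891 in Ctrl mice. Sox12 took 1.497% ± 0.210 in OEx mice and 29.3% ± 2.80 in Ctrl mice. Sox13, whose level rose, had overlapping shares of 17.2% ± 0.990 and 16.1% ± 1.77. These shares are free of the scaling between mice.

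**Figure D3:**
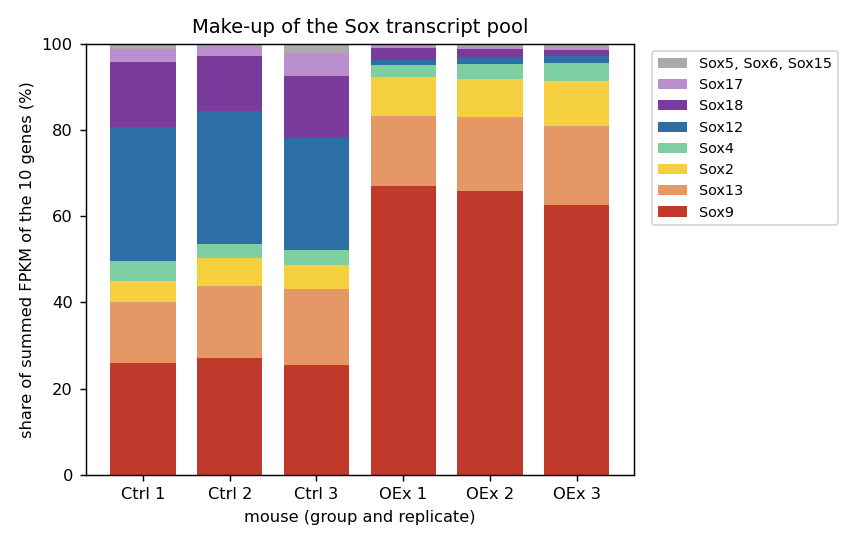
Share of each Sox gene in the summed FPKM of the 10 genes, in percent, with 1 bar per mouse. Sox9 takes 62.7% to 67.1% in OEx mice and 25.5% to 27.2% in Ctrl mice, while Sox12 takes 26.1% to 31.0% under Ctrl and 1.38% to 1.74% under OEx.

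The order of levels differed accordingly. In Ctrl mice it ran from Sox12 and Sox9 over Sox13, Sox18, Sox2, Sox4, Sox17, Sox15 and Sox6 to Sox5. The ranges of Sox12 and Sox9 overlapped, as did those of Sox13 and Sox18, of Sox4 and Sox17 and of Sox15 and Sox6. In OEx mice it ran from Sox9 over Sox13, Sox2, Sox4, Sox18, Sox12, Sox17, Sox5 and Sox15 to Sox6. There the ranges of Sox18 and Sox12 overlapped, as did those of Sox5 and Sox15. The ratio of Sox9 to Sox12 ran from 0.834 to 0.979 in Ctrl and from 36.0 to 48.7 in OEx mice, and that of Sox9 to Sox13 from 1.45 to 1.82 and from 3.44 to 4.13. The ratio of Sox18 to Sox17, at 2.74 to 5.33 under Ctrl and 2.12 to 4.61 under OEx, overlapped between groups.

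The scaling between mice bears on the levels. The size used to scale the deposited values was 1.22 to 1.35 times the reads found for OEx mice and 0.726 to 0.815 times those found for Ctrl mice. Scaling to library totals instead moved the median over all genes tested from -0.08 to 0.65 in log2 fold change. Sox2, Sox9, Sox13 and Sox12 kept their direction and call under each of 3 other scalings. Sox18 had a log2 fold change of -0.43 with library totals, where its groups overlapped (limma FDR 0.136), -0.61 with totals that leave out the 20 most abundant rows (limma FDR 0.0407) and -0.90 with upper-quartile scaling (limma FDR 0.00833). None of the 3 kept its call. Relative to the median of all genes under library totals, Sox18 remained below it. Sox15 turned from below to above 0 under all 3 scalings, with values of at most 0.15.

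**Figure D4:**
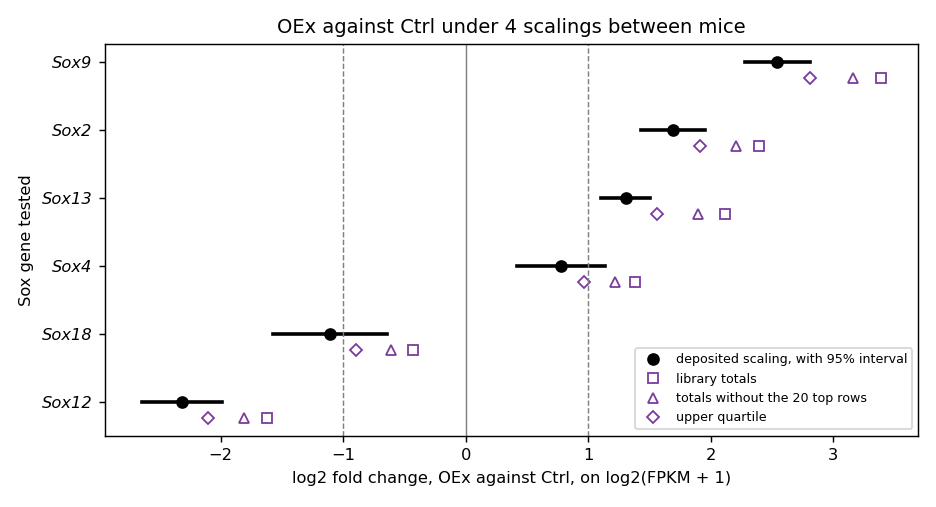
Log2 fold change of the 6 tested Sox genes, OEx against Ctrl, on log2(FPKM + 1), with the 95% interval as a bar for the deposited scaling and open symbols for 3 other scalings, and dashed lines at -1 and 1. Every gene keeps its sign, and Sox18 moves from -1.11 to between -0.90 and -0.43.

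Of 10 further Sox genes looked for, none reached a mean of 1 FPKM, and 2, Sox14 and Sry, were listed at 0 in every mouse. Those with a mean of at least 0.1 FPKM were Sox7, given above, Sox8 and Sox10. Sox10, a gene of neural crest and glia, had read counts of 7, 16 and 11 under OEx and of 27, 11 and 25 under Ctrl, with a log2 fold change of -1.29 that did not pass (limma-voom FDR 0.0582). Sox8, a SoxE relative of Sox9, was at 0.102 ± 0.0584 and 0.179 ± 0.161 FPKM, and its groups overlapped.

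SOX proteins bind together with partners such as POU factors and are linked to Wnt signalling through TCF factors. Of 25 partner and co-regulator genes, 14 were tested, 2 rose and 2 fell, with a median log2 fold change of 0.17. These counts are near the background of 12.9% and 15.7% over all genes, so they say nothing particular about the partners, and the 4 genes are given for their values. Klf5, a zinc finger factor of epithelial progenitors, had 9.74, 9.34 and 9.58 FPKM in OEx mice and 3.55, 3.24 and 3.11 FPKM in Ctrl mice and rose (log2 fold change 1.296, limma FDR 4.72e-05). Chd7, a chromatin remodeller that binds Sox2, had 1.81, 2.04 and 1.90 FPKM in OEx mice and 0.412, 0.577 and 0.363 FPKM in Ctrl mice and rose (log2 fold change 1.01, limma FDR 4.56e-04). Both groups were tight and far apart for these genes. Tcf7, a nuclear factor of the Wnt pathway, had 5.40, 4.83 and 5.40 FPKM in OEx mice and 15.8, 15.4 and 12.2 FPKM in Ctrl mice and fell (log2 fold change -1.31, limma FDR 1.38e-04). Pou2f3, the POU factor of tuft cells, had 0.195, 0.184 and 0.897 FPKM in OEx mice and 4.74, 4.98 and 1.94 FPKM in Ctrl mice and fell (log2 fold change -1.74, limma FDR 0.00327). Mouse 3 of each group lay towards the other group for Pou2f3.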

How the data were processed

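RNA-seq of total RNA from the AP of 6 mice was used. The authors deposited 1 FPKM value per gene and mouse. The submitters' processing notes name CASAVA, HISAT2 2.0.5, StringTie 1.3.3b and featureCounts 1.5.0-p3, and the genome build, annotation, strand setting and read length are not given in the sources used here. Rows were matched by symbol to GENCODE M21 (GRCm38), which placed 53636 of 55076 rows, and symbols listed more than once (648 repeats) were left unmatched. Reads per gene were recovered from exon lengths, and 96.9% to 97.5% of values under 1000 reads came out whole within 0.05 reads.

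The main test was a limma fit (version 3.58.1, R 4.3.3, eBayes with trend, group as the only term) on log2(FPKM + 1) over rows whose mean reached 1 FPKM, with the fold change and FDR limits of the study. Exact permutation tests were two-sided. Alternatives were other scalings, filters, pseudocounts and thresholds, each mouse left out, the replicate number as a block, and limma-voom on recovered reads. Steps were tested on simulated data. Same-numbered mice of the groups did not deviate together (correlations -0.31 to -0.19). With 3 mice per group and mouse 3 apart in both, this cannot show whether the numbers pair the samples, and the labels do not say. Members, gene lists and tests were chosen with earlier results of these data known. Named are all members, other Sox genes whose mean reached 0.1 FPKM, partner genes that were called, and genes overlapping a member. Marker genes and Sox2ot were named after their values were seen. Plots used Python 3.11.15 and matplotlib 3.10.9. Results of some marker genes are not reported here.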

Additional observations from a re-analysis of the deposited data

How the results depend on the processing

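Over 18 alternatives, 97 of 108 log2 fold changes of the 6 tested Sox genes kept their direction and their side of the threshold, 0 reversed, 4 lost a call and 7 gained one. In the fits on log2(FPKM + 1), other filters, no fold criterion and the replicate block leave the log2 fold change unchanged. Its direction could not reverse in those. Sox2, Sox9, Sox12 and Sox13 were called in all 18, with log2 fold changes from 1.63 to 2.40, 2.46 to 3.39, -2.87 to -1.62 and 1.26 to 2.12, and a highest limma FDR of 0.00416. With library totals, with totals without the 20 most abundant rows and with upper-quartile scaling, 1 member was called lower in place of 2, and leaving out 1 mouse at a time gave 1 to 2, with 1 only without OEx mouse 3, each time through Sox18; the cause was not tested. The 4 lost calls are those of Sox18 at -0.43, -0.61, -0.90 and -0.91, and the 7 gained are those of Sox4, at 0.78 (with no fold criterion) to 1.38. In limma-voom with no FPKM filter, and with mice 1 and 2 of each group summed in that fit, both added after seeing the data, 5 members were called higher, since Sox4 and Sox5 joined, and 3 and 2 were called lower. In the fit on log2(FPKM + 1) with mice 1 and 2 of each group averaged, also added later, 3 were called higher and 2 lower, as before. With the replicate block, 3 members were called higher and 2 lower and the limma FDR ran from 0.00148 to 0.0236, and no call changed. Over all genes, library totals called 4458 higher and 504 lower in place of 1653 and 2021, totals without the 20 most abundant rows 3477 and 717, upper-quartile scaling 2341 and 1326, a filter of 1 FPKM in every mouse 876 and 1609, no fold criterion 3941 and 4680, limma-voom 2525 and 2017, and limma-voom with no FPKM filter 4803 and 2577, or 3777 and 2131 with mice 1 and 2 summed. Depth limits Sox15 and Sox6, which had 13 and 38 reads under OEx and 10 and 87 under Ctrl.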
